A study of Mus musculus with 90 samples.

Results

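Complement and coagulation genes were followed through 15 tissues of the mouse. The 53 members, of 20414 genes listed, were taken by their Entrez Gene identifiers and not by their measured values. The list itself was chosen with earlier results of these data known. By their known source, 36 are plasma proteins made mainly by the liver and 17 are made by cells within the tissues, such as macrophages and endothelium. The animals were unmanipulated female mice, C57BL/6 by the labels and C57BL/6J by the study's methods, which carried no transgene or deletion and received no treatment. They were 10 weeks old by the labels, although the study's methods give another age. Each tissue gave 3 libraries from estrus and 3 from diestrus, 90 in all. By the study's methods the phase was read from vaginal smears, with serum estrogen and progesterone measured as an aid. Levels are given as FPKM, mapped fragments corrected for the length of the transcript and for the total mapped in the library.

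Complement is a cascade of plasma proteases that marks microbes and damaged cells. Its classical route begins with C1q bound to C1r and C1s, and its lectin route with mannose-binding lectins and their proteases. Both cleave C4 and C2 to form the convertase of C3, while factor B and properdin build and stabilise the alternative one, and C5 to C9 assemble into the membrane attack complex. Coagulation is a second protease cascade, in which tissue factor, or the contact proteins, lead through factor X to thrombin and fibrin, and plasmin later dissolves the clot. Hepatocytes secrete most of the circulating proteins of both systems, whereas receptors, activators and surface regulators sit on the cells of each tissue. Estrogen is known to alter the plasma level of several coagulation factors, and estrus and diestrus differ in circulating ovarian hormones.

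Liver, spleen, WAT and uterus carried their defining markers. The summed level of 8 hepatocyte markers was 80764 to 101670 FPKM in liver libraries and that of 6 B cell markers 2167 to 2756 FPKM in spleen. That of 6 white adipocyte markers was 18401 to 29404 FPKM in WAT. The largest of these 6 was Cfd, with a mean of 15228 FPKM in WAT. Cfd encodes factor D of complement, so the white adipocyte sums are not independent of the pathway. In uterus, 6 smooth muscle markers summed to 1049 to 4737 FPKM and 6 markers of simple epithelium to 667 to 2009 FPKM. Adipoq, an adipocyte marker, had means of 1014 FPKM in vein and 893 in aorta against 2749 in WAT. Levels given for the vessels are therefore those of mixed tissue. The table holds no read counts, and the steps between low values correspond to about 8.48 to 17.0 M (mega) reads in 89 libraries. BAT estrus replicate 3 stood apart at about 0.0727 M reads, with 12048 genes listed at 0 against 4545 to 4820 in the other BAT libraries, so its share in the results from BAT is given beside them.

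Liver was the main site of these genes. The 53 members together made up 3.18% ± 0.272 (SD, n = 6) of the summed FPKM of all genes in liver, and between 0.0312% in skeletal muscle and 0.170% in spleen in the other 14 tissues. A member was called highest in a tissue when it exceeded each of the other 14 by 1 or more on the scale of log2(FPKM + 1), with a limma adjusted p no higher than 0.05 in each pair. By this rule 32 of the 53 members were highest in liver, where 2.38% of the 17289 genes tested were called. These 32 were all among the 36 liver-made members, and their log2 difference from the next tissue ran from 1.29 for Masp1 to 9.08 for Fgb, with a median of 5.56. Of the 17 locally made members, 5 were called highest in another tissue, which were Plau in kidney, Cfp in spleen, F3 and Plat in uterus, and Vwf in vein, where 1.91%, 4.82%, 0.85% and 0.364% of the genes tested were called in these 4 tissues. Pros1, the cofactor of activated protein C, was the only liver-made member called elsewhere, in ovary, where the background was 2.08%. The calls of F3, Pros1 and Cfp were not stable. Without uterus estrus replicate 1, F3 exceeded vein by 0.83 in log2 (limma adjusted p = 0.00104), under the limit. Pros1 was under it without ovary estrus replicate 3, ovary diestrus replicate 1, vein estrus replicate 1 or vein estrus replicate 2, with a difference from vein of 0.90 to 0.999. With median-of-ratios scaling the smallest difference was 0.59 for Cfp, 0.99 for F3 and 0.026 for Pros1, and none of these 3 was called. The sources were assigned from textbook knowledge, so the direction of these calls is a description of where known plasma proteins are transcribed.

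**Figure D1:**
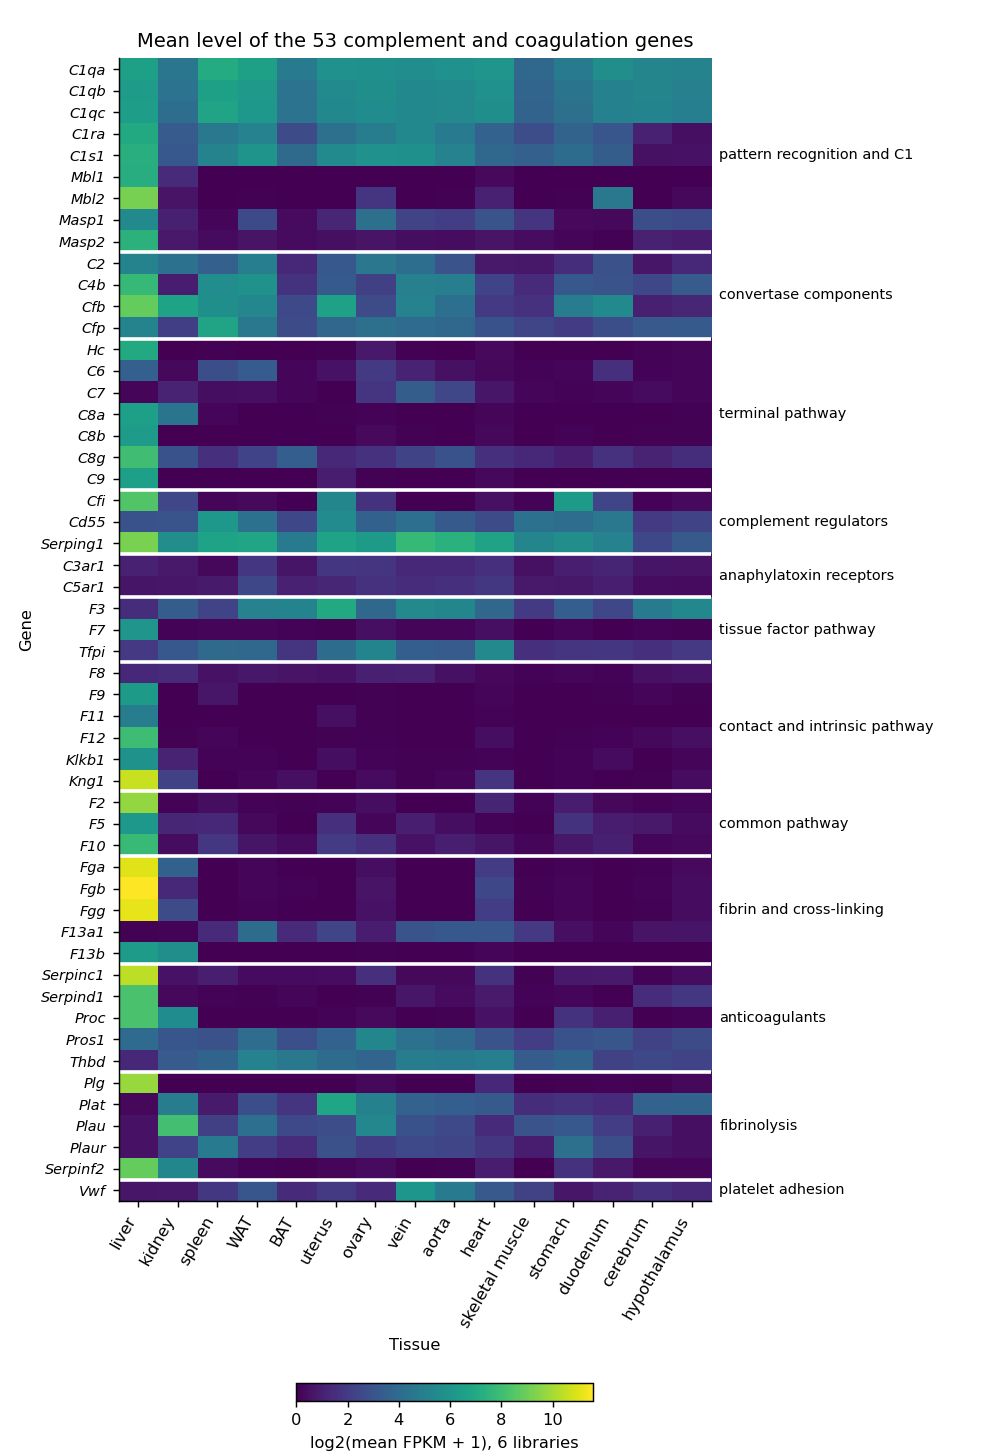
Heat map of the mean level of the 53 genes (rows, grouped by role) in 15 tissues (columns), as log2(mean FPKM + 1) over 6 libraries per tissue. The liver column is the brightest for most rows, with means of 2073 to 3029 FPKM for the 3 fibrinogen chains, while C1qa, C1qb, C1qc and Serping1 have means of at least 4.63 FPKM in every tissue.

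Transcripts of the 3 chains of fibrinogen, the precursor of fibrin, were the most abundant of the 53 members. In the 6 liver libraries Fgb ranged from 2403 to 3535 FPKM with a median of 3132, Fgg from 1842 to 2705 with a median of 2317, and Fga from 1558 to 2460 with a median of 2171. Next in level were transcripts of Kng1, which encodes kininogen, at 1556 ± 108 FPKM, and of Serpinc1, which encodes antithrombin, at 1367 ± 93.4 FPKM (SD, n = 6). Plg, the precursor of plasmin, stood at 885 ± 61.9 FPKM and F2, the precursor of thrombin, at 836 ± 20.5 FPKM in liver. The protease precursors thus lay below their fibrin substrate and, for thrombin, below its inhibitor at the transcript level. Reads of Kng1 and of its near-identical copy Kng2 may be split by the counting, so the level of Kng1 is uncertain.

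The other factors of coagulation were expressed in liver at graded levels. F10 and F5, which together form prothrombinase, had 225 ± 6.44 and 71.3 ± 5.02 FPKM (SD, n = 6), and no other tissue exceeded a mean of 2.98 FPKM for either. Of the contact and intrinsic pathway, F12 had 247 ± 11 FPKM, F9 77.7 ± 3.94, Klkb1 59.2 ± 3.63 and F11 28.3 ± 8.64 FPKM. F8, the cofactor of F9, is made by endothelium and did not exceed a mean of 1.58 FPKM anywhere, in kidney, with 1.42 FPKM in liver, and these levels did not differ beyond their spread (log2 difference 0.093, standard error 0.10, limma adjusted p = 0.465). F7, the protease that binds tissue factor, had 63.7 ± 7.16 FPKM in liver and at most a mean of 0.410 FPKM elsewhere. The inhibitors Serpind1 (heparin cofactor II), Proc (protein C) and Serpinf2, which encodes the plasmin inhibitor, had 306 ± 18.9, 304 ± 10.3 and 458 ± 40.0 FPKM in liver. Among the 17 locally made members, F3, F13a1, Thbd and Plat had their lowest mean in liver, at 1.85, 0.0567, 1.53 and 0.177 FPKM.

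For 39 of the 53 members a promoter was found in a table of RefSeq sequences (build GRCm38.p6) that holds 250 bases before and 50 after each gene's start. They were searched on both strands for 3 motifs known to bind liver factors: that of HNF1 (GTTAAT, any base, then ATT), TTGCNNAA of C/EBP and CAAAGTCCA of HNF4. The HNF1 letters were found in Hc and F13b, so in 2 of 39 members against 0.47% of 27025 genes. The C/EBP letters were found in 10 of 39 members, 9 of them among the 24 liver-highest members with a window, against 12.2% of all genes. The HNF4 letters were found in 0 of 39 members against 0.555% of genes. Some windows that hold a motif are shown because they belong to genes on which the results turn, namely 2 chains of fibrinogen, both genes with the HNF1 letters and a factor each of coagulation and of complement. Capitals mark the motif, and letters run 5′ to 3′ on the strand of the gene.
Hc, chr2:35061456-35061515, minus strand: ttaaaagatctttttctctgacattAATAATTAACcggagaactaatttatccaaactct
F13b, chr1:139501627-139501686, plus strand: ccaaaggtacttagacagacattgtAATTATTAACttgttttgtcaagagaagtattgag
Fga, chr3:83025993-83026050, plus strand: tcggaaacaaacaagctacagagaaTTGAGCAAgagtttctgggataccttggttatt
Fgb, chr3:83049911-83049968, minus strand: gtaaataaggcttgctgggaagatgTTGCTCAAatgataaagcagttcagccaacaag
F9, chrX:59999415-59999463, plus strand: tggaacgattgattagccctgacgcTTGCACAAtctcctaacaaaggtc
C9, chr15:6445189-6445246, plus strand: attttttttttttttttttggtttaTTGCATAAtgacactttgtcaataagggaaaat
A match of letters is a description of these windows and not of binding. In Hc and F13b the HNF1 letters stand on the opposite strand, 69 to 78 bases and 46 to 55 bases before the start, and in Fgb the C/EBP letters lie 73 to 80 bases before it.

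Complement components divided between the liver and the tissues by role. Of the 9 genes of pattern recognition and C1, 6 were liver-highest, while the 3 genes of C1q, the recognition subunit made by macrophages, were highest in spleen and present in all 15 tissues. C1qa ranged from 100.8 to 186.92 FPKM in spleen with a median of 138, had means of 93.1 FPKM in liver and 93.5 in WAT, and had its lowest mean, 13.7 FPKM, in skeletal muscle. Spleen and liver differed for C1qa (log2 difference 0.59, standard error 0.19, limma adjusted p = 0.00436) but not beyond the spread for C1qb (0.22, standard error 0.35, adjusted p = 0.602) and C1qc (0.36, standard error 0.21, adjusted p = 0.125). The order of the tissues by C1qa was nearly that by C1qb and C1qc, with Spearman's rho of 0.964 and 0.971 over the 15 tissue means, and close to that by the macrophage marker Adgre1, with 0.932, and less so by Csf1r, with 0.454. These points share libraries and are given as a description. The mean ratio of C1qb to C1qa lay between 0.635 in duodenum and 0.998 in cerebrum, and that of C1qc to C1qa between 0.631 in duodenum and 0.970 in cerebrum.

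The proteases bound to C1q followed another pattern. C1ra had 130 ± 12.1 FPKM and C1s1 149 ± 11.8 FPKM in liver (SD, n = 6), with means of 40.8 and 55.5 FPKM in vein and 33.5 and 62.6 FPKM in WAT. In the brain they were low, with 1.06 FPKM of C1ra and 0.42 of C1s1 in cerebrum and 0.388 and 0.472 FPKM in hypothalamus, where C1qa had means of 37.8 and 35.1 FPKM. The ratio of C1s1 to C1ra was lowest in kidney, at 0.908 ± 0.139, and highest in uterus, at 2.66 ± 0.496, over the 13 tissues in which both had a mean of at least 1 FPKM. Of the lectin route, Mbl2 had 581 ± 46.9 FPKM, Masp2 171 ± 8.73, Mbl1 149 ± 18.7 and Masp1 44.6 ± 6.64 FPKM in liver. Beyond the liver, Mbl2 was found in duodenum, where its libraries ranged from 4.67 to 65.65 FPKM with a median of 18.3, and Masp1 in ovary at 18.5 ± 6.66 FPKM. C1ra and C1s1 have near-identical copies, C1rb and C1s2, listed at means of at most 0.287 and 1.355 FPKM in any tissue, and the division of reads between copies is uncertain.

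Among the convertase components, Cfb (factor B) was the most abundant. It had 453 ± 39.0 FPKM in liver, 104 ± 12.6 FPKM in kidney and 98.1 ± 112 FPKM in uterus, and, like Cfp, a mean above 1 FPKM in all 15 tissues. C4b had 211 ± 35.2 FPKM in liver against 59.0 ± 40.2 FPKM in WAT and 0.853 FPKM in kidney, its lowest, and C4b is near-identical to C4a, which had at most 0.437 FPKM. C2 had 35.0 ± 4.93 FPKM in liver and 29.5 ± 8.25 FPKM in WAT, which did not differ beyond the spread (log2 difference 0.28, standard error 0.23, limma adjusted p = 0.302). Cfp, properdin, which leukocytes release, ranged from 91.69 to 124.64 FPKM in spleen with a median of 104, against 35.0 ± 8.39 FPKM in liver (log2 difference 1.59, standard error 0.25, limma adjusted p = 3.7e-08).

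The terminal pathway was complete in the liver except for C7. Hc, which encodes C5, had 129 ± 22 FPKM, C8g 256 ± 23.5, C9 92.6 ± 21.8, C8a 90.9 ± 37.1, C8b 79.4 ± 26.5 and C6 10.7 ± 4.42 FPKM in liver, whereas C7 had a mean of 0.1 FPKM there. C7 was instead highest in vein, with 5.83 to 17.49 FPKM and a median of 8.295, followed by aorta with 4.53 ± 1.77 FPKM (log2 difference 0.93, standard error 0.16, limma adjusted p = 1.6e-06). C6 was nearly as high in WAT, at 9.31 ± 5.35 FPKM, as in liver (log2 difference 0.23, standard error 0.18, limma adjusted p = 0.27). In no other tissue did Hc, C8b or C9 exceed a mean of 0.875 FPKM. Of the regulators, Serping1, the inhibitor of C1r and C1s, had 599 ± 71.6 FPKM in liver and at least 4.63 FPKM in each other tissue, with 215 ± 66.5 FPKM in vein and 167 ± 9.05 FPKM in aorta. Cfi, the protease that inactivates C3b, had 344 ± 41.7 FPKM in liver, 77.8 ± 41.7 FPKM in stomach and 38.2 ± 46.4 FPKM in uterus. Cd55, an anchored regulator that dissociates the convertase, had 70.4 ± 5.62 FPKM in spleen and 47.0 ± 23.0 FPKM in uterus, and its close copy Cd55b is listed at no more than 1.402 FPKM in any tissue. The receptors of the anaphylatoxins were low everywhere, C3ar1 at up to 2.51 FPKM in uterus and in WAT and C5ar1 at up to 4.74 ± 1.91 FPKM in WAT.

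The locally made members of haemostasis called highest in a tissue were Plau, Plat, F3 and Vwf. The call of F3 was not stable, as given above. Plau, urokinase, ranged from 218.15 to 383.29 FPKM in kidney with a median of 264, well above ovary at 39.8 ± 5.88 FPKM (log2 difference 2.74, standard error 0.19, limma adjusted p = 1.8e-22). Plat, the tissue plasminogen activator, ranged from 15.16 to 180.75 FPKM in uterus with a median of 123, above ovary at 33.4 ± 15.5 FPKM (log2 difference 1.44, standard error 0.30, limma adjusted p = 2.9e-05). Both activators were high in tissues that barely transcribed Plg, their substrate, which had at most 1.403 FPKM, in heart, outside the liver. Plaur, the urokinase receptor, had 26.6 ± 2.11 FPKM in spleen and 17.99 ± 2.63 FPKM in stomach (log2 difference 0.55, standard error 0.26, limma adjusted p = 0.0584). F3, tissue factor, ranged from 57.13 to 390.6 FPKM in uterus with a median of 76.2, and vein followed at 42.2 ± 11 FPKM (log2 difference 1.23, standard error 0.26, limma adjusted p = 2.5e-05), with hypothalamus and aorta at 41.3 and 39.2 FPKM. Tfpi, its inhibitor, had 42.9 ± 4.03 FPKM in heart and 35.7 ± 5.09 FPKM in ovary (log2 difference 0.27, standard error 0.25, limma adjusted p = 0.341).

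Vwf, which carries factor VIII and tethers platelets, ranged from 45.8 to 92 FPKM in vein with a median of 64.9, above aorta at 25.1 ± 6.24 FPKM (log2 difference 1.36, standard error 0.24, limma adjusted p = 1.5e-06). Thbd, the endothelial receptor of thrombin, had 33.5 ± 13.5 FPKM in WAT, 29.8 ± 2.86 in heart and 27.8 ± 8.72 in vein, and WAT and heart did not differ beyond the spread (log2 difference 0.083, standard error 0.26, limma adjusted p = 0.866). Pros1 ranged from 35.21 to 45.53 FPKM in ovary with a median of 37.0, above vein at 19.0 ± 4.36 FPKM and liver at 15.4 ± 1.92 FPKM (log2 difference from vein 1.00, standard error 0.25, limma adjusted p = 0.000354).

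Kidney was the second source of several liver-made members. F13b, the carrier subunit of factor XIII, ranged from 31.43 to 72.67 FPKM in kidney with a median of 50.55, which was 63.9% of its liver mean (log2 difference liver minus kidney 0.68, standard error 0.067, limma adjusted p = 4.3e-15). Kidney reached 22.9% of the liver mean for Cfb, 22.7% for C8a, 15.9% for Proc and 8.46% for Serpinf2. Its libraries held 17.19 to 23.02 FPKM of C8a and 39.13 to 58.17 FPKM of Proc, so these levels were found in each of the 6. By contrast, kidney held 0.0026% of the liver level of both Hc and Plg and 0.009% of that of F2, and F11 was listed at 0 in all 6 libraries. Of the partner subunits, C8g was present in kidney, at 6.49 ± 1.17 FPKM, and C8b and F13a1 were near 0. C8b, whose protein joins that of C8a in C8, was listed at 0 in 5 of 6 kidney libraries and at 0.03 FPKM in the other, and F13a1, the catalytic subunit of factor XIII, had 0.0917 FPKM there and was highest in WAT at 16.0 ± 9.88 FPKM and lowest in liver.

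**Figure D2:**
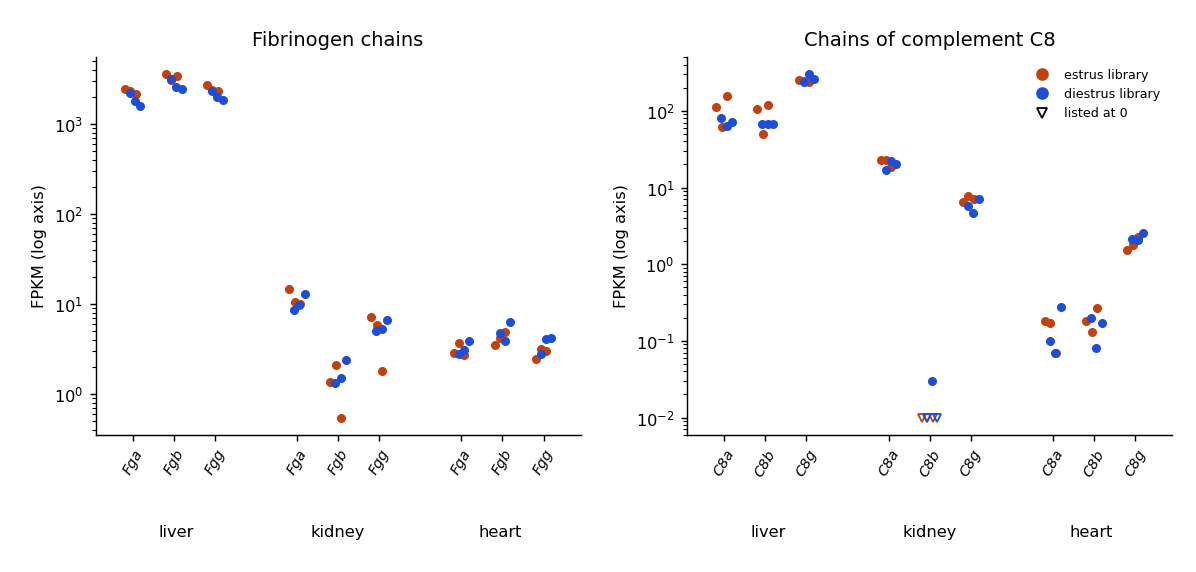
FPKM of the chains of fibrinogen and of C8 in each library of liver, kidney and heart (log axis, orange estrus, blue diestrus, open triangles listed at 0). In kidney Fga lies above Fgb and C8a above C8b, and in heart the 3 fibrinogen chains keep the order of liver near 3 to 5 FPKM.

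The chains of fibrinogen kept a fixed ratio in liver but not in kidney. Fgb had 1.47 ± 0.0851 times the FPKM of Fga in liver (SD, n = 6), and Fgg 1.09 ± 0.0548 times. In kidney, with 11.1 ± 2.24 FPKM of Fga, the ratios were 0.141 ± 0.0562 and 0.475 ± 0.148, so that Fga exceeded both other chains in all 6 libraries. In heart the ratios were those of liver, 1.46 ± 0.283 and 1.04 ± 0.176, at levels of 3.17 ± 0.502 FPKM of Fga, 4.60 ± 0.992 of Fgb and 3.28 ± 0.706 of Fgg. The ratio of C8b to C8a was 0.894 ± 0.112 in liver.

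Heart held most liver-made members at one small share of their liver level. Of the 32 liver-highest members, 24 had a heart mean between 0.120% and 0.310% of the liver mean, and a further 3 (Cfb, F7 and C8g) lay between 0.628% and 0.802%. Of the remaining 5, Serping1 reached 16.6%, Masp1 15.6%, C1s1 9.35%, C1ra 8.92% and C4b 1.8995%. The 8 hepatocyte markers, which have no part in haemostasis, lay between 0.154% and 0.202% of their liver level in heart, and Alb, the albumin gene, had 64.92 to 99.02 FPKM in the 6 heart libraries against 0.095 FPKM in spleen on average. All 32 members had a mean above 0 in heart, as in ovary and uterus, whereas 7 were at 0 in every library of spleen and 8 in BAT, the same number in its 5 deeper libraries. The heart values of members such as F2 (1.30 FPKM), Plg (1.403 FPKM) and Serpinc1 (2.198 FPKM) thus moved with those of hepatocyte genes, and the source of these transcripts was not tested. The library of ovary diestrus replicate 3 was alike, with 50.32 FPKM of Alb against 0 to 0.09 in the other 5, and with 2.07, 3.11 and 2.88 FPKM of Fga, Fgb and Fgg against at most 0.08 there.

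**Figure D3:**
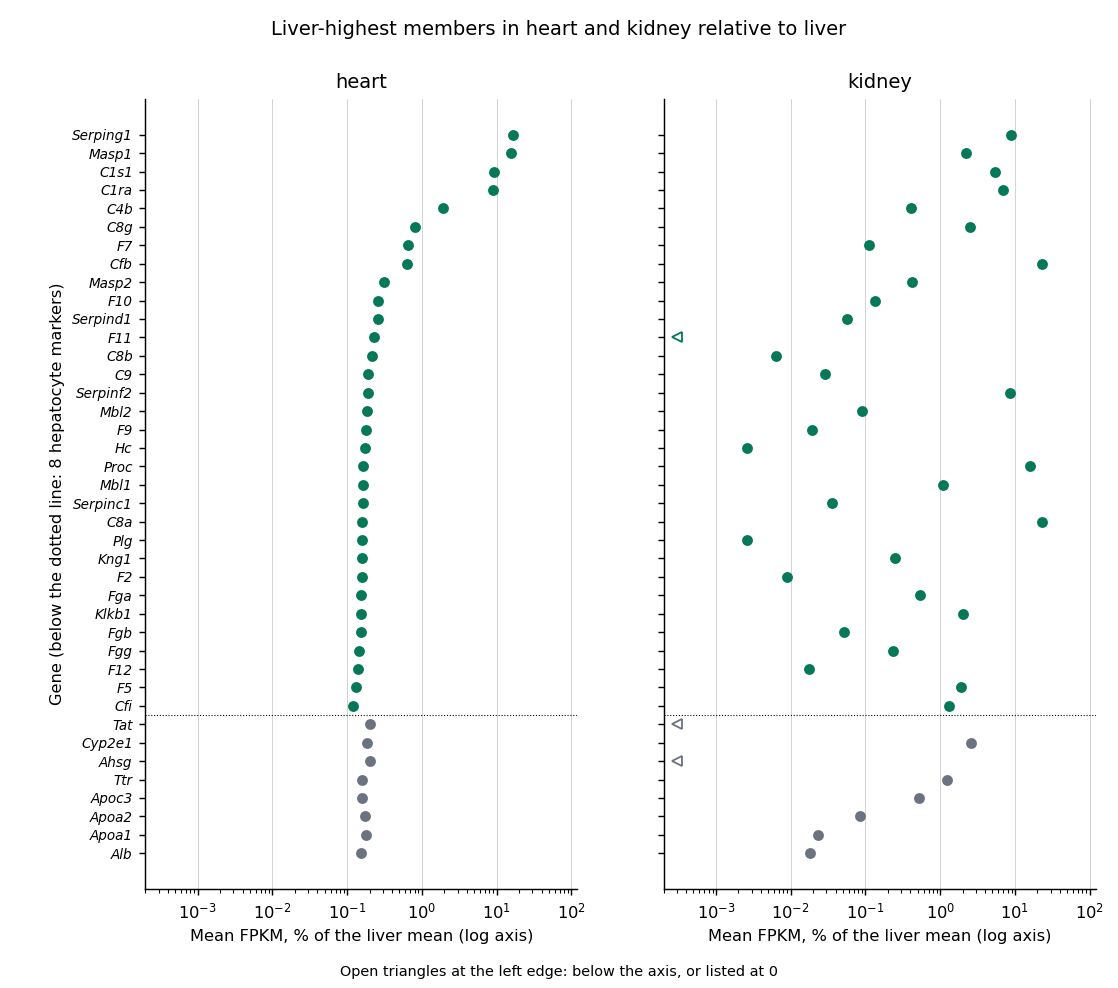
Mean FPKM in heart (left) and kidney (right) as percent of the liver mean (log axis) for the 32 liver-highest genes (green) and 8 hepatocyte markers (grey), ordered by heart. In heart 24 of the 32 form a column from 0.120% to 0.310% that includes the markers, while kidney spreads up to 22.9%, with open triangles for genes below the axis or listed at 0.

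The 57 other genes of the pathway, taken from a list, were also called most often in liver. Of 55 tested, 16 were highest in liver by the same rule, among them C3, the central component of complement, with 2807 FPKM, Vtn with 1427 FPKM and Cpb2 with 275 FPKM. A further 5 were called in spleen (Cr2, Fcnb, Itgax, Itgb2 and F2rl3), 2 in ovary (Serpine2 and Serpina5), 1 in duodenum (Gp1bb) and 1 in vein (Procr). Of all 17289 genes tested, 2.38% were called in liver, 4.82% in spleen, 2.08% in ovary and 0.364% in vein. The count in duodenum was 385 genes. Cfd, factor D, which completes the alternative convertase with factor B, is made by adipocytes and had 15228 FPKM in WAT, 7875 in vein and 0.0883 in liver. The vein libraries also held the adipocyte markers Adipoq and Plin1, at means of 1014 and 330 FPKM. The source of Cfd in vein was not tested.

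Between estrus and diestrus, 0 members passed both limits in any of the 15 tissues, namely a fold change of 1 or more on the log2 scale and an adjusted p no higher than 0.05 (limma within each tissue). The background was 0% of the genes tested in 13 tissues, 0.00798% in spleen and 0.00936% in skeletal muscle, so the comparison called almost no gene of any kind. Fold changes are estrus over diestrus in log2(FPKM + 1), so changes of genes at low FPKM are understated, and members with a mean of at least 1 FPKM in the tissue were tested, 46 in liver, 23 in spleen, 25 in WAT and 27 in uterus. At an unadjusted p under 0.05 there were 2 members in liver (background 5.6%), 2 in spleen (3.51%), 3 in WAT (5.97%) and 1 in uterus (3.74%). With 3 libraries against 3, an exact permutation test of a single gene cannot go below 0.1. In bulk tissue, fewer cells of a type and less RNA per cell cannot be told apart.

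**Figure D4:**
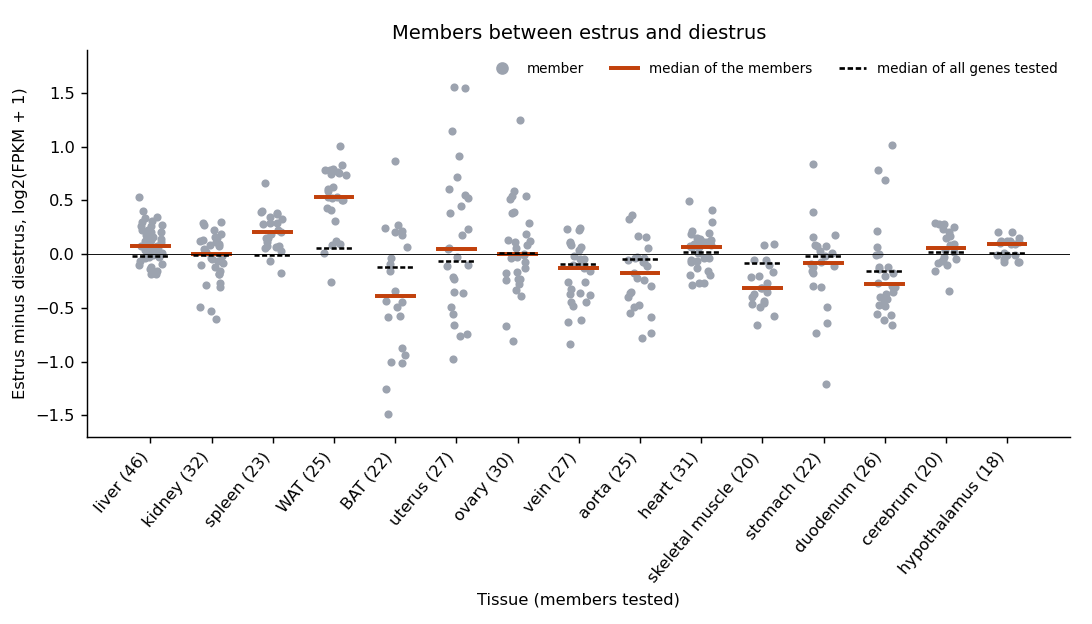
Estrus minus diestrus difference in log2(FPKM + 1) of each tested member (grey points) in 15 tissues, with the median of the members (orange) and of all genes tested (dashed). The members' median is farthest from that of all genes in WAT (0.54 against 0.059), and no point passed the test in its tissue.

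In liver, 34 of the 46 tested members were higher in mean in estrus, with a median log2 fold change of 0.077, against 45.1% of all genes tested and a median of −0.015. The chains of fibrinogen lay near the top. Fga had 2460.2, 2307.4 and 2138.0 FPKM in estrus against 2204.0, 1772.0 and 1558.3 in diestrus (difference 0.33 on the log2 scale, standard error 0.14, limma adjusted p = 0.811). Fgb had 3534.9, 3097.5 and 3382.8 against 3166.6, 2590.5 and 2402.6 FPKM (0.30, standard error 0.12, limma adjusted p = 0.811). For both genes the lowest estrus and the highest diestrus library overlapped. The largest difference was that of C8a, with 112.6, 62.12 and 156.5 FPKM in estrus against 80.02, 63.46 and 70.9 in diestrus (0.53, standard error 0.31, limma adjusted p = 0.812). C8b varied with it, at 104.72, 50.5 and 119.31 against 66.55, 67.62 and 67.98 FPKM (0.34, standard error 0.30, limma adjusted p = 0.850), whereas C8g lay between 237.76 and 299.7 FPKM in all 6 libraries. F11 (0.41, standard error 0.24, limma adjusted p = 0.811) and C6 (0.31, standard error 0.30, limma adjusted p = 0.863) also had overlapping phases.

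A single library carried much of the shift in liver. Liver estrus replicate 3 had the highest of the 6 values for 26 of the 46 members, and 40 of 46 were above their tissue mean there. Its values were 19.41 FPKM of C6 against 8.02 to 10.91 in the other 5, 172.71 FPKM of Hc against 111.49 to 128.44, and 742.0 FPKM of Serping1 against 550.0 to 587.54. Without it 23 of 45 members were higher in estrus and the median was 0.022, and without estrus replicate 1 it was 0.15 with 41 of 46 higher. The macrophage markers summed to 217 FPKM in that library and to 86.3 to 158 FPKM in the other 5, and their part in the result was not tested. The phases did not overlap for 3 members, Cfb, Hc and Plg, all higher in estrus (background 4.48%), and Cfb differed by 0.12 on the log2 scale.

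In spleen, 21 of 23 tested members were higher in mean in estrus, with a median of 0.21 against 47.6% and −0.0067 for all genes. All 12 locally made members tested were among them. F13a1, made by macrophages and megakaryocytes, had 1.92, 3.92 and 1.21 FPKM in estrus against 0.68, 1.1 and 1.26 in diestrus (0.66, standard error 0.28, limma adjusted p = 0.93), and F10 had 2.59, 3.88 and 2.65 against 2.0, 2.27 and 1.97 FPKM (0.38, standard error 0.14, limma adjusted p = 0.93). F10 and Plaur, at 27.66, 28.95 and 28.57 against 26.35, 23.97 and 24.4 FPKM, were the 2 members without overlap (background 3.09% for higher in estrus). C6, F5, Vwf and Tfpi followed with log2 fold changes from 0.34 to 0.40, each with overlap. Spleen estrus replicate 2 had the highest value for 19 of 23 members, and without it 18 of 23 were higher with a median of 0.091. In that library 8 neutrophil markers summed to 1376 FPKM against 185 to 441 in the other 5, and 8 markers of megakaryocytes and platelets to 270 against 93.3 to 237 FPKM. Their part in the result was not tested.

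In WAT, 24 of 25 tested members were higher in mean in estrus, with a median of 0.54 against 63.3% and 0.059 for all genes. Serping1 led with 267.32, 71.83 and 142.95 FPKM in estrus against 68.86, 56.41 and 85.84 in diestrus (difference 1.00 on the log2 scale, standard error 0.43, limma adjusted p = 0.791). Its targets had a like pattern over the libraries, C1ra with 69.86, 23.61 and 39.49 against 24.63, 16.5 and 27.1 FPKM (0.83, standard error 0.37, limma adjusted p = 0.791) and C1s1 with 123.4, 49.48 and 70.24 against 53.77, 36.97 and 41.58 FPKM (0.78, standard error 0.32, limma adjusted p = 0.791). In each of these 3 genes estrus replicate 2 lay within the range of diestrus. Plau had 27.79, 15.63 and 24.94 against 15.41, 10.03 and 12.19 FPKM (0.79, standard error 0.24, limma adjusted p = 0.791), and with Cfp and Pros1 it was one of 3 members without overlap (background 9.25%). F13a1 (0.79, standard error 0.38) and Plat (0.76, standard error 0.41) had overlapping phases.

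WAT estrus replicate 1 stood apart from the other WAT libraries. It had the highest value for 22 of the 25 members, with a median deviation of 0.88 on the log2 scale from the tissue mean, whereas none of the 25 was above the mean in estrus replicate 2. Without replicate 1, 23 of 25 members were still higher in estrus but the median was 0.22 (all genes 0.038), and without estrus replicate 2 it was 0.78. The same library held 2712 FPKM of smooth muscle markers against 124 to 294 in the other 5, and 2471 FPKM of fibroblast markers against 475 to 1025. It also held 510 FPKM of macrophage markers against 127 to 252. The sum of its white adipocyte markers, which include Cfd, was the lowest of the 6 at 18401 FPKM. These cells also express members of the pathway, and their part in the result was not tested. C1qa was likewise highest in that library, with the other 5 close together, at 164.29, 86.69 and 86.01 FPKM in estrus against 69.5, 66.76 and 87.77 in diestrus.

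**Figure D5:**
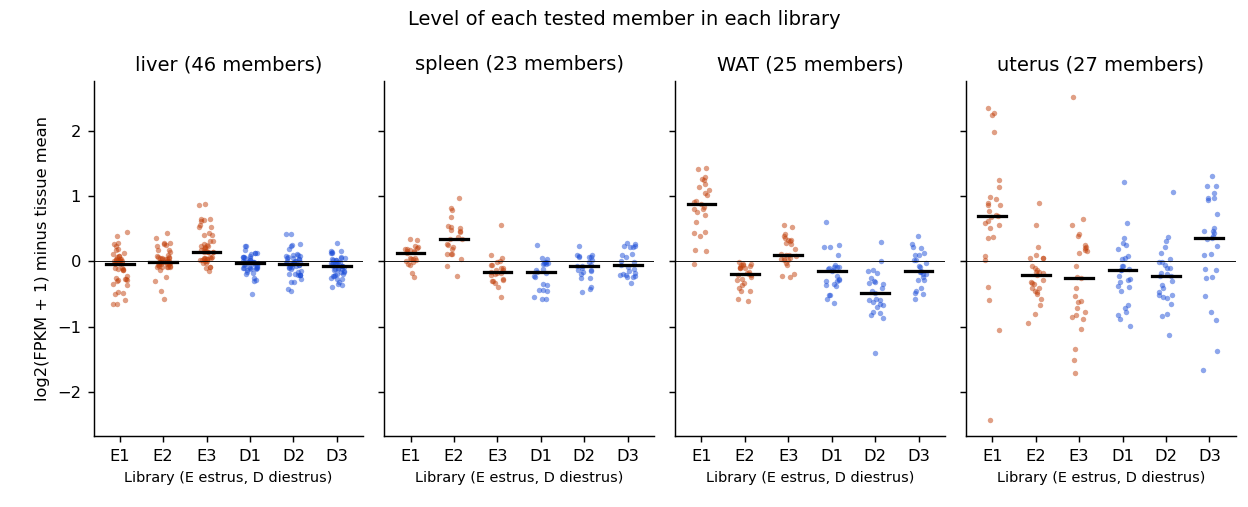
Deviation of each tested member from its tissue mean in log2(FPKM + 1), for the 3 estrus (E, orange) and 3 diestrus (D, blue) libraries of liver, spleen, WAT and uterus, with the median of each library as a bar. In each tissue 1 estrus library lies highest, E3 in liver, E2 in spleen and E1 in WAT and uterus, with medians of 0.15, 0.35, 0.88 and 0.69.

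In uterus the members were divided, with 14 of 27 higher in mean in estrus and a median of 0.048 against 42.7% and −0.067 for all genes. The largest differences were those of Cfi, a regulator, of Cfb, a convertase component, and of the coagulation factor F5. Cfi had 131.71, 26.15 and 23.91 FPKM in estrus against 15.36, 24.99 and 7.25 in diestrus (1.56, standard error 0.72, limma adjusted p = 0.897), and Cfb had 321.77, 53.68 and 88.17 against 35.7, 64.17 and 25.3 FPKM (1.55, standard error 0.68, limma adjusted p = 0.897). Both overlapped between phases. F5 had 3.86, 2.84 and 2.12 against 0.48, 0.19 and 2.08 FPKM (1.14, standard error 0.45, limma adjusted p = 0.897), and with Plau and Cfp it was one of 3 members without overlap (background 3.24%). The anticoagulants Thbd and Tfpi were lower in mean, at 21.2, 10.69 and 3.49 against 18, 14.18 and 29.68 FPKM for Thbd (−0.97, standard error 0.59, limma adjusted p = 0.897) and 18.6, 12.62 and 5.03 against 17.48, 13.19 and 28.92 FPKM for Tfpi (−0.76, standard error 0.49, limma adjusted p = 0.897). The 7 endothelial markers moved with them, with 0 of 7 higher in mean in estrus, the lowest sum in estrus replicate 3 (41.8 FPKM) and the highest in diestrus replicate 3 (260 FPKM), the libraries with the extremes of both genes, and their part in the result was not tested. F10 rested on a single library, estrus replicate 3, with 13.47 FPKM against 0.22 to 1.87 in the other 5, and F11 likewise with 2.16 against 0 to 0.03 FPKM.

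The spread in uterus was the widest of the 4 tissues, and estrus replicate 1 held the highest value for 13 of 27 members. That library had 390.6 FPKM of F3 against 57.13 to 116.99 in the other 5. Its smooth muscle markers summed to 4737 FPKM against 1049 to 3111, its fibroblast markers to 2462 against 418 to 1989 and its macrophage markers to 325 against 62.1 to 148 FPKM, and their part in the result was not tested. Without it 11 of 27 members were higher in estrus and the median was −0.19, and without diestrus replicate 3 the count was 19 of 26. With the spread estimated from all 90 libraries in one fit, Cfi, Cfb and F5 passed both limits, 3 members against a background of 6.65% of genes. In the same fit without estrus replicate 1 none of these 3 did, and 4 others passed, F10 higher and Thbd, Tfpi and Serping1 lower in estrus, against a background of 8.17%. Among the other genes of the pathway C3 varied like Cfb, at 2719.1, 60.05 and 298.17 FPKM in estrus against 44.75, 96.39 and 44.02 in diestrus (2.65, standard error 1.25, limma adjusted p = 0.897).

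The other genes of the pathway were also not called in these 4 tissues. Of those tested, 23 of 35 were higher in mean in estrus in liver, 25 of 37 in spleen, 21 of 28 in WAT and 15 of 32 in uterus. Among all genes tested, 45.1%, 47.6%, 63.3% and 42.7% were higher in these 4 tissues. In the same order, 1, 3, 4 and 4 had an unadjusted p under 0.05 (background 5.6%, 3.51%, 5.97% and 3.74% of all genes). The most abundant in liver was Serpina1c, a protease inhibitor of the alpha-1-antitrypsin family with near-identical copies, at 7592.8, 5766.2 and 6645.4 against 5665.3, 5969.7 and 5404.3 FPKM (0.22, standard error 0.12), followed by Serpina1b (0.0099) and Serpina1d (−0.018). In spleen these were Clu (−0.12), C3 (0.030) and S100a10 (0.062), in WAT Cfd (−0.18), C3 (0.23) and Anxa2 (−0.071), and in uterus, after C3, Serpina1e (0.31) and S100a10 (−0.45), all as log2 fold changes with overlap or a limma adjusted p above the limit.

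Differences of the phase effect between tissues were tested with an interaction term for the 6 pairs of liver, spleen, WAT and uterus. In each pair 0 of the 19 to 24 members tested in both tissues and 0 of all genes were called, and the smallest adjusted p of a pair was between 0.89 and 0.957. At an unadjusted p under 0.05 there was 1 member in each of 4 pairs and 0 in the pairs of liver with WAT and of spleen with uterus. Of all genes, 387 to 530 of the 9785 to 11719 tested in a pair were under it. The larger median in WAT than in liver is therefore a difference in values that the test did not call for any single member.

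Skeletal muscle had the largest share of tested members lower in mean in estrus, ahead of aorta (20 of 25), duodenum (20 of 26) and vein (19 of 27). Of its 20 tested members, 18 were lower, with a median of −0.32 against −0.082 for all genes, of which 29.6% were higher. With libraries scaled by the median of ratios the split was 16 lower and 4 higher, and 16 lower and 4 higher without estrus replicate 3. The same scaling gave 17 of 25 lower in aorta, 16 of 26 in duodenum and 15 of 27 in vein, and moved the median of all genes in duodenum from −0.16 to −0.0069. Thbd had 8.17, 6.95 and 6.32 FPKM in estrus against 9.79, 12.75 and 11.02 in diestrus (−0.58, standard error 0.12, limma adjusted p = 0.0968), and Masp1 had 2.65, 1.01 and 1.28 against 3.47, 2.88 and 2.78 FPKM (−0.66, standard error 0.22, limma adjusted p = 0.157). They and C1qb, C1qc, C1s1 and Pros1 were lower without overlap, 6 members of 20, where 21.9% of all genes tested were lower without overlap. At an unadjusted p under 0.05 there were 10 members, all lower, where the background in that direction was 18%. Without estrus replicate 1 the smallest adjusted p of a member was 0.0135, at a log2 fold change under the limit. The endothelial markers summed to 75.3 to 110 FPKM in estrus and to 120 to 125 FPKM in diestrus, with 0 of 7 higher in estrus, and the fibroblast markers to 189 to 313 against 331 to 392 FPKM, with 0 of 7 higher. Their part in the result was not tested.

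In the other 9 tissues beside BAT members without overlap were few. In aorta Cd55, at 4.11, 6.62 and 8.23 against 9.39, 11.26 and 13.21 FPKM, and F3, at 27.39, 33.07 and 34.91 against 46.17, 49.91 and 43.98 FPKM, were lower in estrus without overlap, 2 members of 25 where the background was 9.54%. Aorta estrus replicate 1 held the lowest value for 16 of the 25 members. Its smooth muscle markers summed to 16027 FPKM against 1761 to 2590 in the other aorta libraries. Its white adipocyte markers, which include Cfd, summed to 858 against 5144 to 9721 FPKM. Without that library 16 of 25 members were lower in estrus, with a median of −0.074 against −0.10 for all genes. In vein Plat was lower, at 9.79, 5.73 and 8.1 against 16.54, 17.24 and 10.83 FPKM (−0.84, standard error 0.23, limma adjusted p = 0.412), with Serping1 at −0.63, and 3 of 27 members were lower without overlap (background 12.9%). In aorta the endothelial markers summed to 264 to 345 FPKM in estrus and 403 to 430 FPKM in diestrus, with 0 of 7 higher. In vein 0 of 7 endothelial, 0 of 7 fibroblast and 0 of 6 smooth muscle markers were higher in mean in estrus. The fibroblast sum there was 696 to 1121 against 1220 to 2046 FPKM. White adipocyte, B cell and T cell markers went the other way in vein, each with 6 of 6 higher in mean in estrus. The white adipocyte sum, of which Cfd is a part, was 10490 to 16098 FPKM in estrus against 5624 to 12424 in diestrus. The B and T cell sums were highest in vein estrus replicate 3, at 198 and 120 FPKM. The part of these markers in the differences was not tested. In ovary F3 was higher, at 14.25, 17.11 and 18.13 against 11.01, 9.11 and 11.79 FPKM (0.59, standard error 0.14, limma adjusted p = 0.704), and C7 lower, at 1.03, 1.33 and 2.35 against 3.01, 4.15 and 3.12 FPKM (−0.81, standard error 0.23, limma adjusted p = 0.777). Without overlap, 2 of 30 members were higher there (background 8.13%) and 2 lower (background 5.58%). In kidney F13b, one of the members for which it was the second source, was lower at 48.35, 48.04 and 31.43 against 58.85, 52.75 and 72.67 FPKM (−0.53, standard error 0.19, limma adjusted p above 0.999), with F5 at −0.49, the 2 of 32 members lower without overlap (background 3.73%), and 1 was higher (background 4.25%).

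In heart C4b, at 4.16, 4.51 and 5.94 against 2.64, 3.06 and 3.75 FPKM (0.50, standard error 0.14, limma adjusted p = 0.792), and Cfb (0.30, standard error 0.13) were the 2 of 31 members higher without overlap (background 7.91%), and 1, F2, was lower (background 3.84%). In duodenum Cfp was higher, at 12.29, 6.05 and 5.48 against 4.13, 4.02 and 3.67 FPKM (0.78, standard error 0.30, limma adjusted p = 0.368), and C6 lower (−0.66, standard error 0.33), and of 26 members 1 was higher (background 4.51%) and 5 were lower without overlap (background 22.1%). Properdin, the gene Cfp, was higher in estrus without overlap in 4 of 15 tissues, and in mean in 10. The 4 were WAT (background 9.25%), uterus (3.24%), duodenum (4.51%) and hypothalamus (9.96%). Thbd was higher in mean in 3 of 15. Cfp was picked as the member with the most tissues higher without overlap, and the share of all genes reaching such counts was not computed. These counts are over tissues of the same animals by the study's methods and are descriptions. In cerebrum Plat (0.28, standard error 0.11) was among 3 of 20 members higher without overlap (background 4.92%), with C1qa and C1qb, and Plau (−0.34, standard error 0.14) was the 1 lower (background 2.88%). In hypothalamus Cfp, the 1 of 18 members without overlap (background 9.96%), differed by 0.10, and stomach held 0 of 22.

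In BAT the comparison depended on the library of few reads. Pros1 had 5.8, 7.05 and 0 FPKM in estrus against 7.4, 7.81 and 8.98, and Tfpi 2.16, 2.39 and 0 against 3.3, 3.54 and 3.53, the value of 0 in each being that library's, and these were the 2 of 22 members lower without overlap (background 18.1%). With it the median of 22 members was −0.39 (all genes −0.12), and without it −0.063 (all genes −0.023), with 16 of 22 lower in estrus. Both genes stayed below the diestrus range in the 2 deeper estrus libraries. In one fit of all 90 libraries, Tfpi, Pros1, C1ra and C1qb passed both limits in BAT, all lower, 4 members against a background of 8.96% of genes, and all 4 are listed at 0 in that library. In the same fit without it 0 members passed (background 0.508%), with C1ra at −0.041 and C1qb at 0.076 in log2.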

How the data were processed

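The study sampled 15 tissues of female mice in estrus and diestrus, with 3 libraries per group. The authors filtered reads with SOAPnuke, mapped them with Bowtie2 2.2.5 to transcripts of GRCm38 and estimated expression with RSEM 1.2.8. The deposited table holds FPKM rounded to 2 decimals for 20414 Entrez genes. Its header does not name the unit, which was taken from the values and the methods. No counts were used here, so depth was approximated from the steps between low values, of which 52.9% to 71.2% were whole within 0.2 reads. Gene symbols came from a RefSeq table of GRCm38.p6, which named 20265 genes, all 53 members among them.

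Groups were taken from the labels. Each gene whose mean reached 1 FPKM in the libraries compared, or in at least 1 tissue for the comparison of tissues, was tested as log2(FPKM + 1) in limma 3.58.1 (R 4.3.3), per tissue between phases and over all 90 libraries between tissues, with Benjamini-Hochberg adjustment over all genes of a comparison. The labels name no animals, and by the study's methods 3 mice per phase gave the tissues. P-values measure the spread between these libraries. The tests were tested on simulated data. The alternatives were a pseudocount of 0.1, no filter, median-of-ratios scaling, a log2 limit of 3 between tissues, a replicate block, one fit of all libraries and leaving out each library.

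The members and the lists of genes and markers were chosen with earlier results of these data known. Every member was described by its highest tissue, with at most 4 of a role in full. Between phases the 6 tested members with the largest difference were named in liver, spleen, WAT and uterus, and in other tissues the 2 largest without overlap. Of the other 57 genes of the pathway, the 3 most abundant per tissue were named. Protein sequences were not used here.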

Additional observations from a re-analysis of the deposited data

Results flagged for a closer look

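Among 53 groups of 6 libraries, each the tissue in which a member was highest, 11 held a library far from the other 5 by Dixon's 95% criterion. Chance alone flags about 1 in 20 independent groups, but 35 of these 53 are the same 6 liver libraries. The flags are thus not independent, and the share of all genes flagged in these libraries was not computed. In 6 of the 11 the library was liver estrus replicate 3, each time the highest of the 6. Its values were 153.47 FPKM of C1ra, 531.51 of Cfb, 172.71 of Hc, 19.41 of C6, 133.64 of C9 and 742.0 of Serping1, and all 6 genes belong to complement or its control. Liver diestrus replicate 3 was low for Mbl1, at 114.56 FPKM, and liver estrus replicate 1 was low for Mbl2, at 494.76 FPKM, so the lectins departed in other libraries. In uterus, F3 stood at 390.6 FPKM in estrus replicate 1. In spleen, Cd55 was highest in estrus replicate 1, at 81.49 FPKM, and in kidney F8 was lowest in estrus replicate 3, at 0.78 FPKM. No cause of these departures was tested.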

How the results depend on the processing

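The count of 32 members highest in liver was the same with a pseudocount of 0.1, with no filter, with a replicate block, without any 1 replicate number and without BAT estrus replicate 3, and these were the same 32 genes. Median-of-ratios scaling gave 35, adding C2, C6 and F13b, and a log2 limit of 3 gave 23. Of 249 alternatives for the main counts and medians, 245 were scored as unchanged. A count was scored so within a set fold of the main count, and other values on their side of the limit or within the spread. By this loose rule the 23 members at a log2 limit of 3 also counted as unchanged, although genes were lost. One fit of all 90 libraries called 4 members in BAT and 3 in uterus, against 0 within each tissue, and, in fits added after seeing the data, 0 in BAT without its estrus replicate 3 and 4 other members in uterus without its estrus replicate 1. The alternatives for members highest in a tissue other than liver and for counts higher in estrus were also added then. Leaving out one library moved the liver median between 0.022 (without estrus replicate 3) and 0.15 (without estrus replicate 1). Of 296 alternatives for single genes and other values, 275 were unchanged in call and direction or within the spread. Among the others, the median with no filter was −0.064 in duodenum and −0.051 in skeletal muscle, and without vein estrus replicate 3 it was −0.34 in vein. By the study's methods the phases came from different mice, so a replicate number could not pair them. Of 45 same-numbered estrus and diestrus pairs, 8 had a correlation of deviations over 0.1, and in 0 of 15 tissues did all 3. Within a phase, same-numbered libraries of different tissues had a mean correlation of 0.045, against −0.022 for other numbers, and 21.6% of 630 such pairs were over 0.1. Whether a number stands for 1 animal was not tested, and the fits between tissues treat libraries as independent. With the replicate block 0 members were called between phases in each tissue, as without it. Depth limits what can be said of members under about 1 FPKM, and with 3 libraries per phase no difference smaller than the spread between libraries can be seen.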

Other observations

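In uterus several members were high in 1 estrus library each, and not in the same one. Estrus replicate 1 held the highest C3, Cfb, Cfi and F3, at 2719.1, 321.77, 131.71 and 390.6 FPKM, whereas estrus replicate 3 held the highest F10 and F11, at 13.47 and 2.16 FPKM. In estrus replicate 3 the neutrophil markers summed to 137 FPKM against 8.48 to 18.9 in the other 5 libraries, and their part in these values was not tested.

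In duodenum, Mbl2, a mannose-binding lectin known as a liver product, was found in all 6 libraries, at 4.67, 21.31 and 26.79 FPKM in estrus against 15.38, 6.76 and 65.65 in diestrus. The 8 hepatocyte markers summed to 2920 to 12626 FPKM in these libraries, of which apolipoproteins are also made by enterocytes, and Alb had a mean of 0.147 FPKM there. C8g, which encodes a lipocalin chain of C8, had means of 9.87 FPKM in BAT (7.95 ± 1.38 without estrus replicate 3, SD, n = 5, where it was 19.45) and 6.44 in aorta, where C8a and C8b had means of at most 0.015 FPKM.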
